A study of Mus musculus with 12 samples.

Results

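Cd79a, Cd79b, Ms4a1, Pax5, Ebf1 and Vpreb3 are genes of the B lymphocyte lineage whose transcripts were counted in basophils grown with thymic stromal lymphopoietin (TSLP). These 6 genes, of 31301 gene symbols in the count table, were chosen by their values: they were higher in TSLP than in IL-3 cultures and highest in a single library, TSLP mature 1. Their height in TSLP cultures and in that library is therefore described without a test, and TSLP mature 1 is given apart from the other libraries. Bone marrow cells of wild-type C57BL/6J mice, with no transgene or deletion in any group, were cultured for 7 days to obtain bone marrow-derived basophils (BMBAs). The cytokine was IL-3 in 6 libraries, at a concentration of 0.3 ng/mL, and TSLP in the other 6, for which the protocol gives 1 µg/mL and a sample label the unit mg. From these cultures, immature basophils, which the study calls pre-basophils, were sorted as FcεRIαhi CD49blo and mature basophils as FcεRIαlo CD49bhi cells, and their RNA was sequenced in bulk. Each of the 4 groups (IL-3 mature, IL-3 immature, TSLP mature and TSLP immature) holds 3 libraries, which the study describes as separate cultures, and the comparison asked whether TSLP-elicited cells resemble mature or immature IL-3-elicited basophils. Age and sex of the mice are not stated in the labels, and the p-values below measure the spread between these libraries.

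B cell development is driven by a small set of transcription factors, among which EBF1 specifies the lineage and PAX5, acting after it, commits cells to it and represses genes of other lineages. CD79A and CD79B, also called Igα and Igβ, are the signalling chains of the pre-B cell and B cell receptors, VPREB3 binds immunoglobulin chains inside pre-B cells, and MS4A1, known as CD20, is a surface protein of B cells. TSLP binds a receptor that contains the IL-7 receptor α chain, and it was first described as a factor that supports B lymphocyte precursors in culture. Basophils are granulocytes of the myeloid lineage, of which none of these genes is a marker.

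Library totals ranged from 1720065 to 3685285 counts, and levels are given as CPM, counts per 1000000 counts of a library size adjusted with TMM factors. In every library, 10 of 10 basophil genes, among them Mcpt8, Cpa3 and Fcer1a, were counted, which does not show how pure the sorted cells were. Their summed levels lay between 9948 and 45388 CPM. The sort marker genes of TSLP mature 1 were nearer to TSLP immature levels. Fcer1a (FcεRIα) was at 1770 CPM in it, against 867 and 1136 CPM in TSLP mature 2 and 3. TSLP immature libraries had 1218 to 1525 CPM. Itga2 (CD49b) was at 96.4 CPM, against 208 and 198 CPM and 81.2 to 88.8 CPM in the same libraries. Prss34, at 1492 CPM, was above TSLP mature 2 and 3 (958 and 1169 CPM) but far below the TSLP immature libraries (14138 to 16464 CPM). TSLP mature 1 stood apart from its group. Its chi-square per degree of freedom over genes was 46.2 against TSLP mature 2 and 58.4 against TSLP mature 3, whereas the value lay between 2.18 and 14.7 in the other 10 pairs of libraries from a common group. Ribosomal Rn45s took 8.68% of its counts and between 15.8% and 20.2% in the other 5 TSLP libraries. The IL-3 libraries had between 7.43% and 12.5%, so that the share of TSLP mature 1 lay in their range and those of the other TSLP libraries above it.

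The stretches before the transcription starts of Cd79a and Vpreb3 are shown because both hold sequence motifs bound by factors of the B lineage. Sequences are from RefSeq promoter windows of GRCm38.p6, in which 4 of the 6 genes had an entry, and are written 5′ to 3′ with motif matches in capitals. The window of Vpreb3 (plus strand, chr10:75948050-75948299) precedes a start inside the span of the gene, since a longer annotated transcript begins upstream of it. Its 250 bases hold GGGAAT, the reverse complement of ATTCCC, which is recognised by EBF factors, at positions -175 to -170 from the start, and the octamer ATTTGCAT, bound by POU2F factors with POU2AF1, at -45 to -38. For Cd79a (plus strand, chr7:24897247-24897380), the part of the window that lies before the first annotated exon is shown, with GGGAAT at -171 to -166 and the E-box CAGGTG, a site of E2A (TCF3), at -154 to -149.
Vpreb3: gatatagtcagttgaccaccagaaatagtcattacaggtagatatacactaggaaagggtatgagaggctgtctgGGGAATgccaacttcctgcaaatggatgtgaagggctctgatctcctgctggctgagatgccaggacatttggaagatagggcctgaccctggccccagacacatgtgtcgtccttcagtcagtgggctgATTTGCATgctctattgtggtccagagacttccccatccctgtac
Cd79a: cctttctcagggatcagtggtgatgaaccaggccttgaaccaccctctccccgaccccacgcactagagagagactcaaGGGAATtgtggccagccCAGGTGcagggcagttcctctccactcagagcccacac
Both strands were searched, and no matches overlapped. Among 32851 windows of 250 bases, 11.4% hold ATTCCC, 17.2% hold CAGGTG, 1.6% hold ATTTGCAT and 11.8% hold CCCNNGGG, the core of the palindromic EBF site, which had no match in the windows of these genes. A second window of Ebf1 held ATTCCC at -208 to -203, and the window of Pax5 held none of the 4 motifs. A match describes the letters of a window and does not show that a factor was bound there.

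The transcription factor genes Pax5 and Ebf1 were at a few counts per library outside TSLP mature 1. Pax5 (chromosome 4, 44524748 to 44710694, minus strand, GRCm38.p6) had 2, 1 and 4 counts in IL-3 mature 1, 2 and 3, none in the 3 IL-3 immature libraries, 8, 4 and 6 counts in the 3 TSLP immature libraries, and 9 and 7 counts in TSLP mature 2 and 3. In TSLP mature 1 it had 36 counts, or 9.67 CPM. Its IL-3 and TSLP values overlapped, since IL-3 mature 3 (1.79 CPM) lay above TSLP immature 2 (1.56 CPM). The level in TSLP immature cells, 2.0 ± 0.42 CPM (SD, n = 3), was at least 5.84-fold that in IL-3 immature cells, against a floor of 3 counts over the group (0.348 CPM). In mature cells, without TSLP mature 1, it was 2.62-fold higher with TSLP (exact 95% interval 1.02 to 7.54, for counting error only, as for every interval of a fold below).

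Ebf1 (chromosome 11, 44618100 to 45008096, plus strand) had 1, 0 and 0 counts in IL-3 mature 1, 2 and 3 and 0, 1 and 0 in IL-3 immature 1, 2 and 3. It had 5, 4 and 2 counts in the TSLP immature libraries and 3 and 9 counts in TSLP mature 2 and 3. TSLP mature 1 again held the most, 21 counts (5.64 CPM). All 6 TSLP libraries lay above all 6 IL-3 libraries. Over the 5 TSLP libraries other than TSLP mature 1, Ebf1 was at 1.47 ± 0.82 CPM (SD, n = 5), against 0.107 ± 0.166 CPM (SD, n = 6) in IL-3 libraries, a ratio of 12.1 (2.98 to 106) that rests on 23 and 2 counts.

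The receptor chain genes had more counts. Cd79a (chromosome 7, 24897497 to 24901858, plus strand) had 1, 2 and 0 counts in the IL-3 mature libraries, 2 in each IL-3 immature library, 16, 7 and 18 in TSLP immature 1, 2 and 3, and 11 in each of TSLP mature 2 and 3. TSLP mature 1 held 132 counts, 35.4 CPM, where TSLP mature 2 and 3 were at 3.11 and 3.37 CPM. The TSLP libraries did not overlap the IL-3 libraries, of which the highest was at 0.966 CPM. In immature cells the level was 4.54 ± 1.71 CPM (SD, n = 3) with TSLP and 0.731 ± 0.208 CPM (SD, n = 3) with IL-3, a ratio of 6.65 (2.81 to 19.2).

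Cd79b (chromosome 11, 106311341 to 106314562, minus strand) was the member with a level in IL-3 cultures that can be read from counts. It had 2, 4 and 1 counts in IL-3 mature libraries and 10, 17 and 17 counts in IL-3 immature libraries, which is 0.869 ± 0.520 and 5.09 ± 0.45 CPM (SD, n = 3 each). The 2 stages did not overlap, and the ratio was 5.69 (2.54 to 15). In TSLP cultures it had 56, 48 and 61 counts in immature cells, at 18.7 ± 2.0 CPM (SD, n = 3), 25 and 28 counts in TSLP mature 2 and 3, at 7.06 and 8.58 CPM, and 260 counts in TSLP mature 1, at 69.8 CPM. At both stages the TSLP libraries lay above the IL-3 libraries, by 3.65-fold (2.60 to 5.21) in immature cells and by 8.69-fold (3.94 to 22.7) in mature cells without TSLP mature 1.

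Ms4a1 (chromosome 19, 11249679 to 11266149, minus strand), the CD20 gene, had 0, 1 and 1 counts in the IL-3 mature libraries and 2, 0 and 1 in the IL-3 immature libraries. It had 37, 22 and 29 counts in TSLP immature cells, at 9.83 ± 1.26 CPM (SD, n = 3), and 19 and 14 counts in TSLP mature 2 and 3, at 5.37 and 4.29 CPM. TSLP mature 1 held 145 counts, 38.9 CPM. Its ratio of the 5 other TSLP libraries to the 6 IL-3 libraries, 25.4 (10.6 to 79.6, from 121 and 5 counts), was the highest of the 6 genes, and its interval overlapped those of the other members but Cd79b (4.49, 3.29 to 6.21), among them Cd79a (7.35, 3.63 to 16.8).

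Vpreb3 (chromosome 10, 75943024 to 75949657, plus strand), the pre-B cell gene with the octamer shown above, had a count in only 2 of 6 IL-3 libraries, 1 in IL-3 mature 2 and 2 in IL-3 immature 2. It had 7, 3 and 2 counts in TSLP immature libraries, 5 and 3 in TSLP mature 2 and 3, and 55 in TSLP mature 1. The last is 14.8 CPM, where the 5 other TSLP libraries lay between 0.679 and 2.10 CPM. The IL-3 libraries reached 0.569 CPM and so stayed below them.

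**Figure D1:**
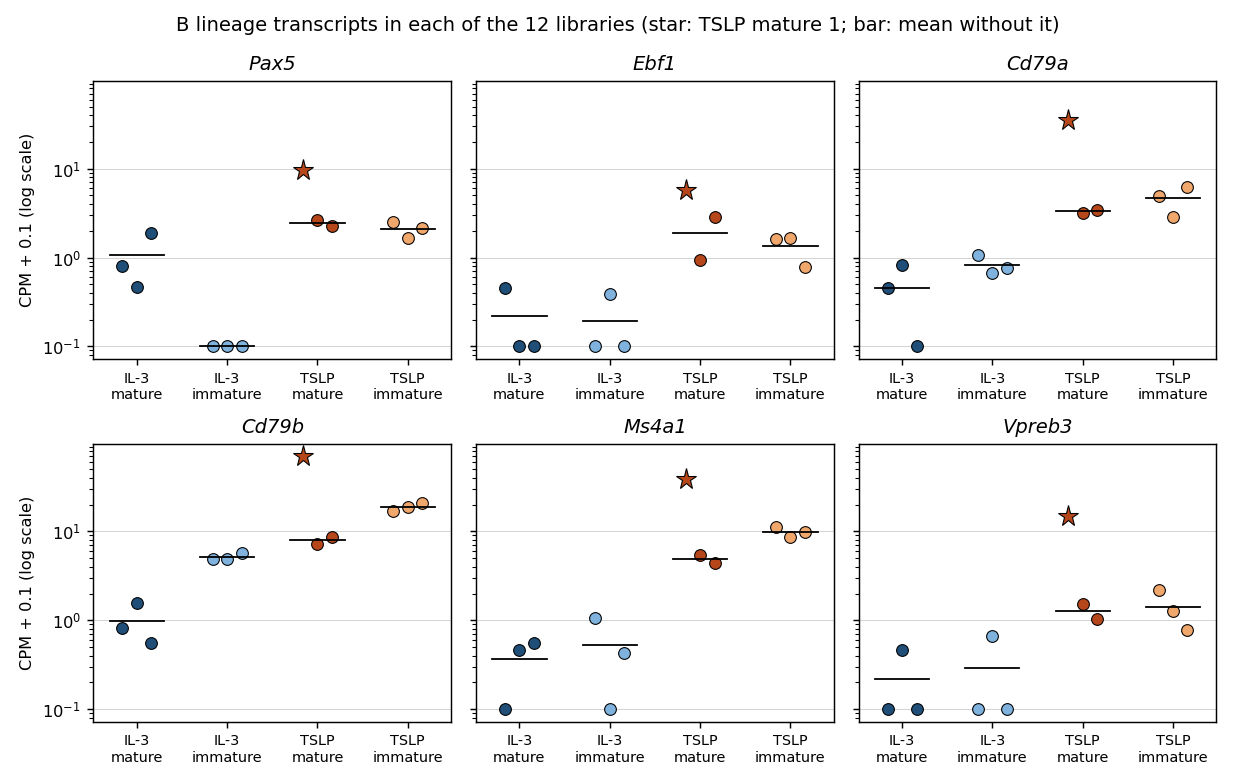
Level of Pax5, Ebf1, Cd79a, Cd79b, Ms4a1 and Vpreb3 in each of the 12 libraries, as CPM plus 0.1 on a log axis, by group; each point is a library, the star is TSLP mature 1 and the bar is the mean of the group without it. TSLP libraries lie above IL-3 libraries in each panel but that of Pax5, Cd79b is at about 5.09 CPM in IL-3 immature cells, and the star is the highest point of every panel.

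In all, 5 of the 6 genes, Pax5 being the exception, had every TSLP library above every IL-3 library, as did 1.30% of the 22634 symbols with a count. The same 5 genes did so without TSLP mature 1, as did 1.78% of all symbols, and all 6 were highest in TSLP mature 1, as were 11.9% of all symbols. The choice of the genes fixed these counts. Summed over the 6 genes, the level was 2.69 ± 0.57 CPM in IL-3 mature, 6.54 ± 0.26 CPM in IL-3 immature and 37.6 ± 3.0 CPM in TSLP immature cells (SD, n = 3 each), 20.3 and 22.1 CPM in TSLP mature 2 and 3, and 174 CPM in TSLP mature 1. In sorted bulk RNA, fewer cells of a type and less RNA per cell cannot be told apart, so that these sums say nothing of how many cells carried the transcripts.

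The genes were not chosen on 2 further comparisons, the stages of the IL-3 cultures and, without TSLP mature 1, the stages of the TSLP cultures. Only Cd79a, Cd79b and Ms4a1 had enough counts to pass the filter for low values, while Pax5, Ebf1 and Vpreb3 did not. These 3 passed through the TSLP libraries in which they were chosen to be high, so that nothing is read from how many of them were called. Between the IL-3 stages, where 46.2% of 10861 tested genes were called, none of the 3 was. Cd79b was higher in immature cells by 2.46 ± 1.16 on the log2 scale (SE), with a Benjamini-Hochberg adjusted p of 0.0934 in the edgeR quasi-likelihood test and an unadjusted p of 0.0496. This test estimates 1 spread per gene over all 12 libraries, and the call rested on libraries outside the comparison. Without TSLP mature 1 the difference was 2.50 with an adjusted p of 0.00014, and without TSLP mature 2 or TSLP mature 3 the adjusted p was 0.0479 and 0.0462. Cd79a (0.80 ± 1.78, adjusted p 0.74 in edgeR) and Ms4a1 (0.40 ± 2.14, adjusted p 0.895 in edgeR) rested on 9 and 5 counts over the IL-3 libraries. With standard errors of this size, the lack of a call does not show that the stages were equal.

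With no filter on low counts, where all 6 genes entered the test, Cd79b was higher in IL-3 immature cells (2.54 ± 0.51, edgeR adjusted p 8.0e-06) and Pax5 was lower in them (edgeR adjusted p 0.0175). These are 2 of 6 genes called, where 22.6% of 22634 symbols were. The Pax5 call rests on 7 counts in IL-3 mature and 0 in IL-3 immature cells, a ratio that the exact interval places below 0.628. Exons of Pax5 overlap those of 5730488B01Rik and Gm12462 on the opposite strand and share 7.02% of its 50-base stretches with them. 5730488B01Rik had 2 counts over all 12 libraries.

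In TSLP cultures without TSLP mature 1, Cd79b and Ms4a1, 2 of 3 tested genes, were called higher in immature than in mature cells. Over all 11020 tested genes, 19.0% were higher and 31.4% were called in either direction. The 3 passed the filter through TSLP libraries, so nothing is read from their number. With no filter, 1 of the 6 genes, Cd79b, was called higher, where 9.5% of 22102 symbols were. Pax5 (-0.14), Ebf1 (-0.44) and Vpreb3 (0.26, log2) were then not called. Cd79b differed by 1.35 ± 0.26 on the log2 scale (SE, edgeR adjusted p 0.00103), with 3 of 3 immature libraries above both mature ones, and it kept that call under each of the alternatives run. Ms4a1 differed by 1.11 ± 0.41 (edgeR adjusted p 0.0456), with 3 of 3 immature libraries above both mature ones. That call was lost in a DESeq2 test (adjusted p 0.0919), with DESeq2 size factors (0.0527), with no filter on low counts (0.0523) and without TSLP immature 1, 2 or 3, TSLP mature 2 or 3, IL-3 immature 3 or IL-3 mature 2 (edgeR adjusted p 0.0545 to 0.239). Cd79a did not pass the test (0.59 ± 0.46, edgeR adjusted p 0.361). With TSLP mature 1 included, the 3 differences changed sign, to -0.62 for Cd79b, -0.73 for Ms4a1 and -1.61 for Cd79a, and none was called past the filter (edgeR adjusted p 0.472, 0.414 and 0.109). These values rest on the library by which the genes were chosen, and with no filter Cd79a and Vpreb3 were called lower in immature cells, at an edgeR adjusted p of 0.000319 and 0.00457.

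The 6 genes did not keep the same proportions in every group. The shares that follow are of the raw counts of the 6 genes, with Wilson 95% intervals, and compare a gene with itself. Cd79b took 78.6% (66.2 to 87.3%) of the 56 counts in IL-3 immature cells, against 49.3% (43.9 to 54.6%) of 335 in TSLP immature cells and 40.1% (36.4 to 43.9%) of 649 in TSLP mature 1. Ms4a1 took 5.36% (1.84 to 14.6%) in IL-3 immature and 26.3% (21.8 to 31.2%) in TSLP immature cells. The intervals of both genes in these 2 groups do not overlap. In TSLP mature 2 and 3, the shares of Ms4a1 (22.9%, 16.8 to 30.4%) and Cd79b (36.8%, 29.4 to 44.9%) overlapped those of TSLP mature 1, where Ms4a1 took 22.3% (19.3 to 25.7%).

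**Figure D2:**
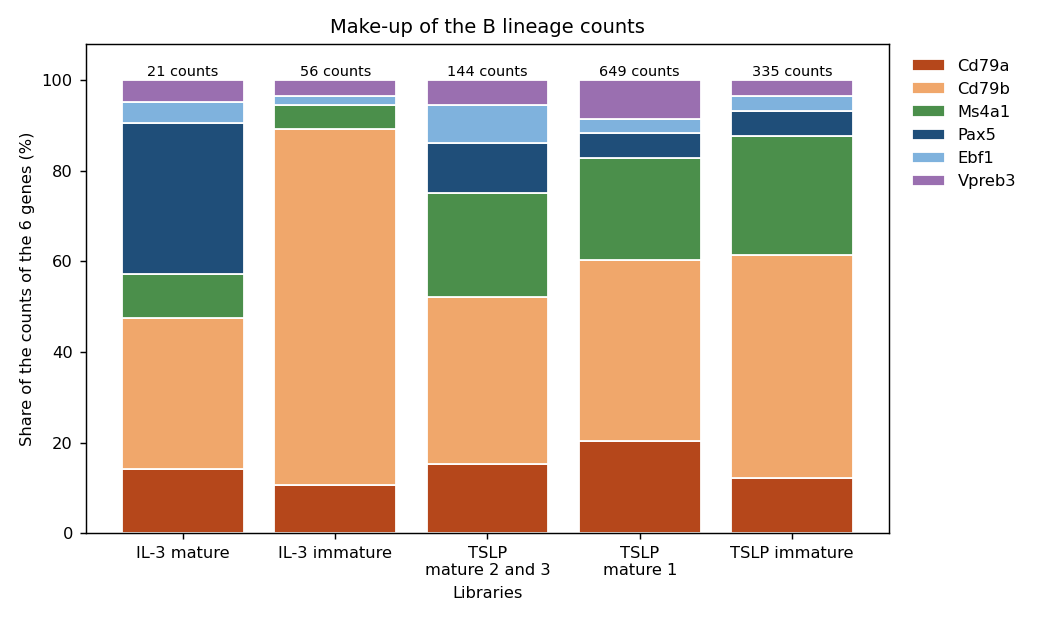
Share of each of the 6 genes in their summed raw counts (%), with the number of counts above each bar, for the libraries of each group, TSLP mature 1 apart. Cd79b takes 78.6% in IL-3 immature cells, and the bars of TSLP mature 1 and of TSLP mature 2 and 3 are alike in Ms4a1, at 22.3% and 22.9%.

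TSLP mature 1 exceeded the mean of TSLP mature 2 and 3 by different factors for the 6 genes. The ratio was 12.6 (5.95 to 30.5) for Vpreb3, 11 (6.94 to 18.1) for Cd79a, 8.96 (6.65 to 12.3) for Cd79b and 8.02 (5.47 to 12.1) for Ms4a1. It was 4.11 (2.22 to 7.93) for Pax5 and 3.20 (1.50 to 7.12) for Ebf1, the lowest values being those of the transcription factor genes. The interval of Ebf1 overlaps that of Cd79b, and the difference between the genes was not tested. Summed, the 6 genes were 8.23-fold (6.86 to 9.93) higher in TSLP mature 1.

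The other genes of the B lineage were read from 5 lists with 60 genes in the table, of which 34 passed the filter. Between the mature groups, 14 of the 34 were called higher with TSLP and 3 lower, where 12.4% of all tested genes were higher, and their median log2 fold change was 0.48 against 0.09 over all tested genes. Between the immature groups, 10 of the 34 were higher and 2 lower, where 7.38% of all tested genes were higher, with a median of 0.41 against 0.04. Some of the 34, such as Blk and Ly6d with 4 and 5 counts over the IL-3 libraries, passed the filter through TSLP libraries. The lists were also chosen with earlier results of these data known. These counts and medians, and the counts by B lineage list below, are therefore a description and not a test of the lists. Without TSLP mature 1, 9 of the 14 calls and 10 of the 10 calls remained, and Cd22 and Ly6d were added to the latter. Leaving out IL-3 mature 1 or IL-3 mature 2 brought the first count to 9 or 5, and the second lay between 4 and 6 without any 1 of the 6 immature libraries.

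B cell receptor signalling held most of these calls. Of 13 tested genes, 8 were higher and none lower in TSLP mature cells (among them Cd72, Cd81, Blk, Syk and Pik3ap1), and 6 were higher and none lower in TSLP immature cells. Without TSLP mature 1, 5 of the 8 remained, and Cd81 (edgeR adjusted p 0.204), Plcg2 and Ptpn6 were lost. Blk, a Src family kinase of B cells, had no count in IL-3 mature cells and 0, 2 and 2 in IL-3 immature cells, against 19, 19 and 13 in TSLP immature libraries, 12 and 9 in TSLP mature 2 and 3 and 97 in TSLP mature 1. Over the 5 TSLP libraries other than TSLP mature 1 it was 18.9-fold (7.07 to 71.2) the level of IL-3 libraries. Pik3ap1 (BCAP), the adaptor that links the receptor to PI3 kinase, rose by 1.42 ± 0.37 in mature and 1.82 ± 0.40 in immature cells (log2, edgeR adjusted p 0.0122 and 0.00743).

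Several of these signalling genes are also genes of myeloid cells and had no excess in TSLP mature 1. Syk, the kinase recruited by the CD79 chains and by Fc receptors, rose by 0.73 ± 0.18 in mature and 0.89 ± 0.18 in immature cells (log2, edgeR adjusted p 0.00784 and 0.00454) and was 0.896-fold (0.810 to 0.990) in TSLP mature 1 relative to TSLP mature 2 and 3. Pik3ap1 was 0.883-fold (0.602 to 1.28) in the same ratio. Blk, at 8.43-fold (5.22 to 14.2), and Cd22, at 7.30-fold (3.92 to 14.6), were in the range of the 6 genes instead.

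Of 7 tested genes of the transcription factor list, Tcf3 (E2A) rose in mature cells (0.82 ± 0.21 on the log2 scale, edgeR adjusted p 0.01), Spi1 (PU.1) rose in immature cells (0.52 ± 0.16, edgeR adjusted p 0.0439), and Ikzf3 (Aiolos) fell by 1.42 ± 0.18 and 0.94 ± 0.18 (edgeR adjusted p 0.000138 and 0.00279). Pou2af1 (OCA-B), the coactivator at octamer sites, had too few counts for the filter. It had 0 counts in all 6 IL-3 libraries, 3, 4 and 12 in TSLP immature 1, 2 and 3, 10 and 6 in TSLP mature 2 and 3, and 60 in TSLP mature 1, and the 5 other TSLP libraries together were at least 12.2-fold above the IL-3 libraries. Spib was 7.76-fold (3.04 to 25.3) and Irf4 7.08-fold (2.47 to 27.9) higher in those 5 libraries. In TSLP mature 1 relative to TSLP mature 2 and 3, Pou2af1 was at 6.85-fold (3.89 to 12.7), Spib at 6.73-fold (4.01 to 11.8), Irf8, which myeloid cells also use, at 5.17-fold (2.97 to 9.41), Irf4 at 2.80-fold (1.40 to 5.77) and Spi1 at 1.28-fold (1.17 to 1.40). Without the filter and with TSLP mature 1 included, 26 of the 60 genes were called higher in TSLP mature cells, where 6.35% of all symbols were. In TSLP immature cells 14 were, where 3.40% of all symbols were. Of the 60 genes, 31 were highest in TSLP mature 1, as were 11.9% of all symbols. Igll1, among the 26, had 17 counts there and 0 in TSLP mature 2 and 3. The unfiltered comparison of mature cells was not run without that library.

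Of the pro-B and pre-B stage list, Rag1, a subunit of the recombinase, had 0 counts in all IL-3 libraries and at least 1 in every TSLP library, with 10 and 9 counts in TSLP mature 2 and 3, 19 in TSLP mature 1 and 3, 2 and 1 in TSLP immature cells. Of the surrogate light chain genes, Vpreb2 had 1 count in TSLP mature 1, 2 in TSLP mature 2 and 0 elsewhere. Igll1 had 17 counts in TSLP mature 1 and 1 in the other 11 libraries, and Vpreb1 had 10 in TSLP mature 1, 4 in IL-3 immature cells and 0 in the other TSLP libraries. Dntt, the terminal transferase of pro-B cells, had 4 counts in TSLP mature 1 and 0 in the other 11 libraries. Of the 5 tested genes of that list, Myb and Sox4 were higher in TSLP mature cells and Erg and Cplx2 lower, and Erg was also lower in TSLP immature cells. These 4 are genes of progenitors or, for Cplx2, of exocytosis, and the calls of Myb and Sox4 were lost without TSLP mature 1 (edgeR adjusted p 0.0571 and 0.112).

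Among mature B cell genes, 3 of 8 tested were higher in each comparison and none lower. Ly6d, a surface protein of B cell progenitors, had 1 count or none in 5 of 6 IL-3 libraries and 2 in the sixth, 9 to 16 in the 5 other TSLP libraries and 147 in TSLP mature 1, a ratio to TSLP mature 2 and 3 of 10.7 (6.99 to 17.1). Cd24a, which is also on granulocytes, rose by 3.20 ± 0.27 in immature cells (log2, edgeR adjusted p 1.3e-06) and was 1.38-fold (1.23 to 1.55) in TSLP mature 1 relative to TSLP mature 2 and 3. Jchain, the only immunoglobulin list gene in the table, had 106 counts in TSLP mature 1, 0 to 18 in the other TSLP libraries and 2 to 9 in IL-3 libraries, and was called in neither cytokine comparison past the filter. With no filter and TSLP mature 1 included, it was called higher in TSLP mature cells. Of the 60 genes, 8 had no count in any IL-3 library, and 4 of these, among them Rag1, Pou2af1 and Tnfrsf13c (the BAFF receptor), were counted in all 5 other TSLP libraries. Over all symbols, 13 of 2103 were, and these symbols were not matched to the list genes by count level.

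**Figure D3:**
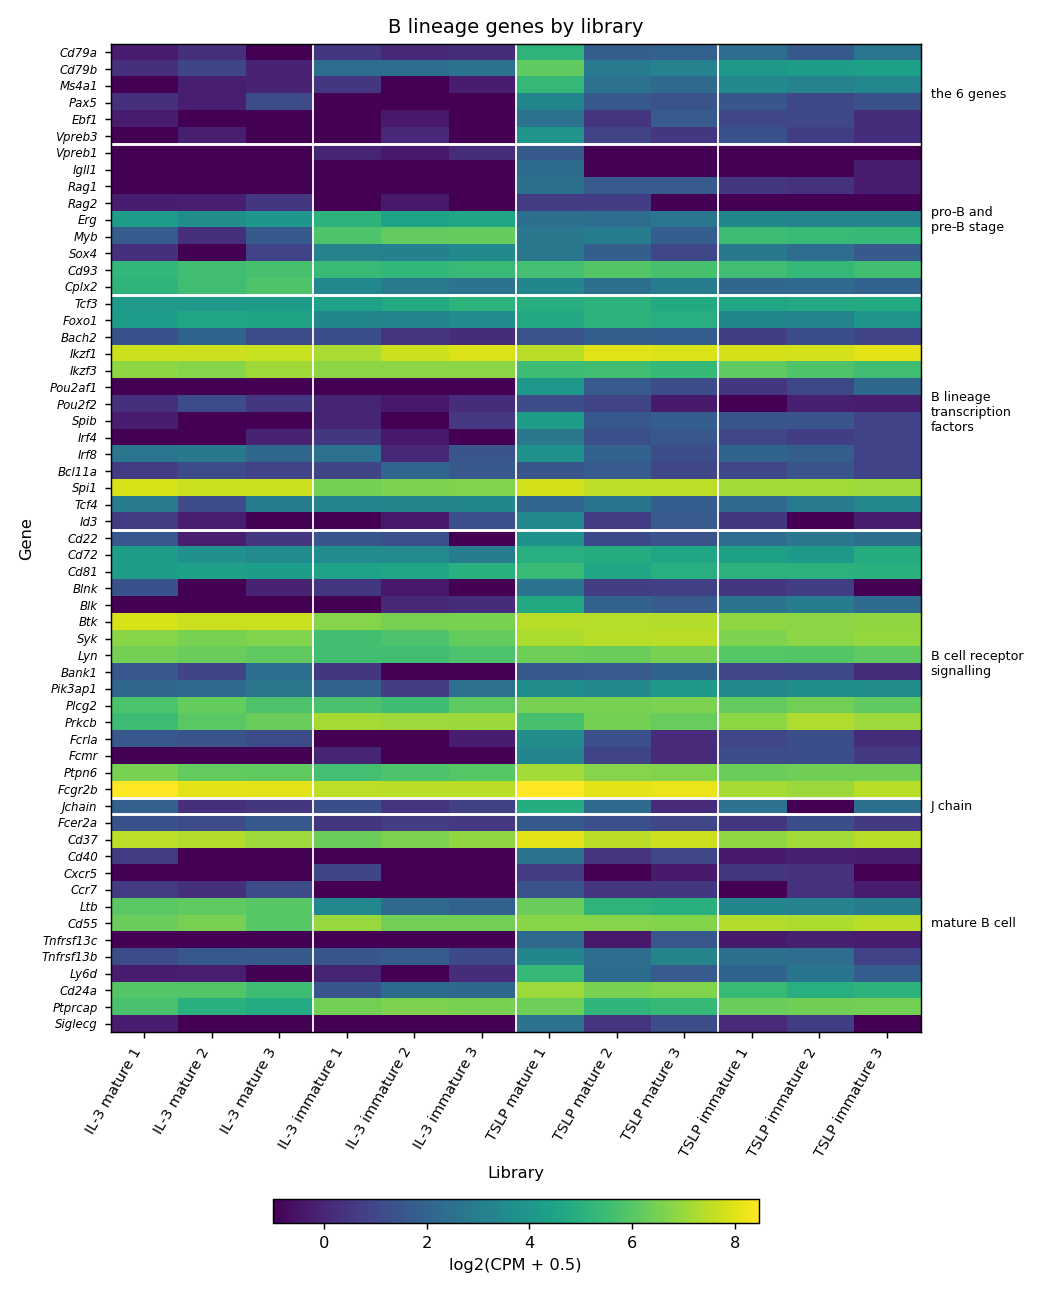
Level of the 6 genes and of other B lineage list genes with at least 10 counts over the 12 libraries, 59 genes in all, as log2(CPM + 0.5), by library. Cd79a, Ms4a1, Pou2af1, Spib, Blk, Fcmr and Ly6d are dark in the 6 IL-3 libraries, brighter in the TSLP libraries and brightest in TSLP mature 1, while Syk, Btk, Ikzf1 and Spi1 are bright in all.

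Between the stages of IL-3 cultures, 6 of the 34 tested B lineage genes were higher in immature and 12 in mature cells, a share near the 46.2% of all tested genes that were called. In TSLP cultures without TSLP mature 1, 4 were higher in immature and 7 in mature cells, likewise near the 31.4% over all tested genes. Prkcb, Myb and Ptprcap were higher in immature cells of both cultures, and Ltb, Cd24a, Btk, Syk and Foxo1 were among the genes higher in mature cells of both. Between the IL-3 stages, the median log2 difference of immature minus mature was -0.25 against -0.06 over all tested genes.

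Markers of other cell types moved with TSLP mature 1 as well. The 12 neutrophil genes summed to 1498 CPM in it, against 685 and 702 CPM in TSLP mature 2 and 3. The IL-3 mature libraries had 1223 to 1449 CPM. Cxcr2 was a large part of these sums, at 657 CPM in TSLP mature 1 and 639 and 629 CPM in TSLP mature 2 and 3. Ngp and Ltf, proteins of secondary granules, were 29.8-fold (21.2 to 43.2) and 78.5-fold (33.1 to 244) higher in TSLP mature 1 than in TSLP mature 2 and 3. Ngp was at 153 CPM in TSLP mature 1 and at 17.4 to 23.8 CPM in IL-3 mature libraries. The 10 genes of monocytes and macrophages summed to 2065 CPM against 816 and 897 CPM in TSLP mature 2 and 3. The 8 genes of conventional dendritic cells summed to 54.2 CPM against 22.4 and 24.6 CPM, with Clec9a at 0 in all libraries. The 10 MHC class II genes, which B cells and dendritic cells share, summed to 1588 CPM against 536 and 554 CPM, and Cd74 was 3.12-fold (2.92 to 3.33) higher. In IL-3 mature libraries these sums were 910 to 1490, 9.87 to 25.5 and 191 to 335 CPM. The part of these cell types in the B lineage values was not tested.

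Relative to IL-3 libraries, the other 5 TSLP libraries had mixed levels of these lists. Among neutrophil genes, Ltf, S100a8, S100a9, Camp and Ngp were at 0.108-fold to 0.321-fold, whereas Lcn2 (0.997-fold, 0.916 to 1.08), Cxcr2 (0.818-fold, 0.791 to 0.845) and Mmp8 (0.776-fold, 0.624 to 0.965) were closer to 1 and Fcnb, with 6 and 1 counts, was at 6.30-fold (0.764 to 290). Past the filter, none of 11 neutrophil genes was called higher in TSLP mature cells and Ly6g, Cxcr2 and Retnlg were lower, while Cxcr2 was higher in TSLP immature cells. With no filter and TSLP mature 1 included, Ngp, Ltf and Lcn2 were called higher in TSLP mature cells. Among monocyte and macrophage genes, Mrc1, a mannose receptor, and Adgre1, which encodes F4/80, were 8.11-fold (4.31 to 16.9) and 2.52-fold (2.32 to 2.75) the level of IL-3 libraries. Adgre1 rose by 1.06 ± 0.18 in mature and 3.71 ± 0.25 in immature cells (log2, edgeR adjusted p 0.00125 and 1.3e-07). Mrc1 rose by 3.58 ± 0.65 and 2.63 ± 0.84 (log2, edgeR adjusted p 0.00151 and 0.0482), and Ly6c2 rose in immature cells by 2.39 ± 0.36 (edgeR adjusted p 0.000563). Ccr2 fell in mature cells, Cx3cr1 fell at both stages, and Ctss was at 0.392-fold (0.364 to 0.421) over the 5 libraries. Of MHC class II genes, 8 of 10 were higher in TSLP mature and 4 of 10 in TSLP immature cells, where 12.4% and 7.38% of all tested genes were. Cd74 rose by 2.72 ± 0.38 and 1.73 ± 0.40 (log2, edgeR adjusted p 0.000309 and 0.0102). Without TSLP mature 1 the first count was 5, and the calls of H2-Aa, H2-Ab1 and H2-Eb1 were lost. Cd74 was then at 1.86 on the log2 scale (edgeR adjusted p 2.5e-05).

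**Figure D4:**
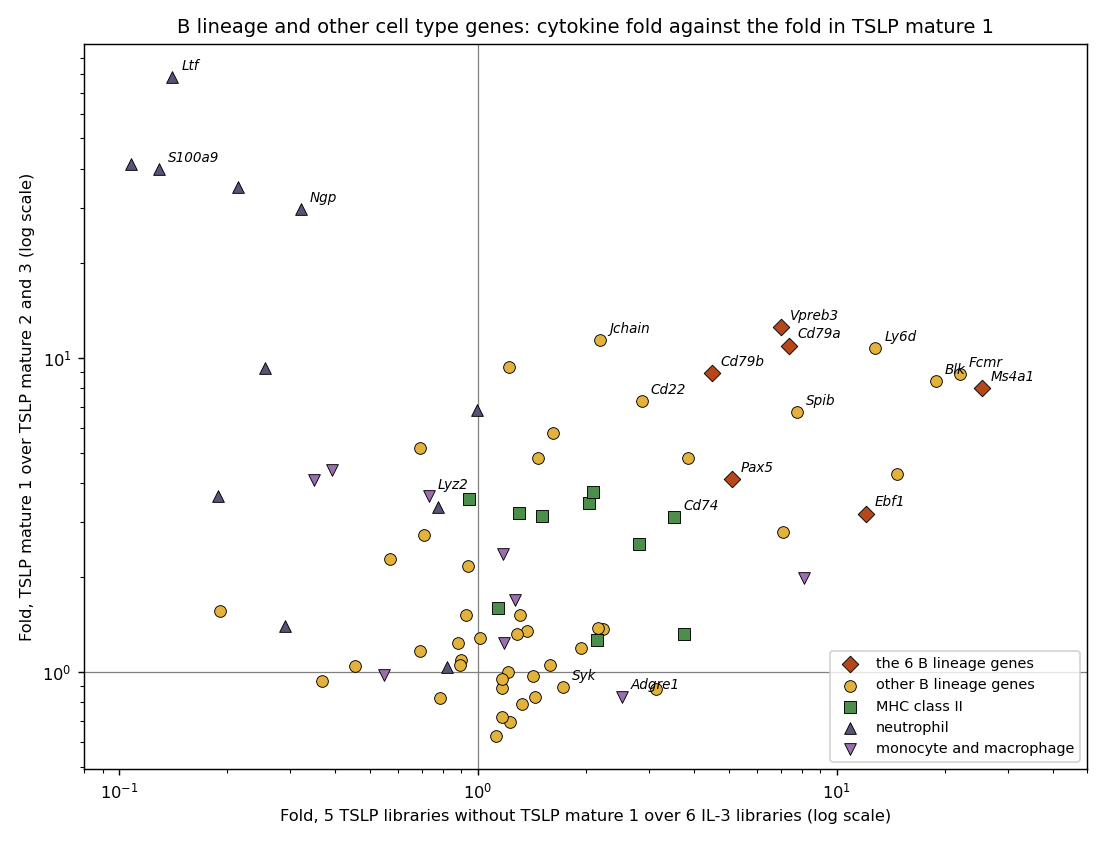
For 80 genes with at least 30 counts in the libraries plotted, the ratio of 5 TSLP libraries, without TSLP mature 1, to 6 IL-3 libraries (horizontal) against the ratio of TSLP mature 1 to TSLP mature 2 and 3 (vertical), both on log axes; each point is a gene, lines mark a ratio of 1, and both ratios share TSLP mature 2 and 3. The 6 B lineage genes lie at the upper right, with horizontal ratios from 4.49 to 25.4 and vertical ratios from 3.20 to 12.6, and the neutrophil genes Ngp, Ltf and S100a9 lie at the upper left. Genes with no count in the IL-3 libraries, such as Pou2af1 and Rag1, are not plotted. The horizontal ratio pools both stages, with fewer mature libraries on the TSLP side.

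Defining markers of lymphocytes other than B cells had few counts, apart from Nkg7. The 9 T cell genes summed to between 0.989 and 5.93 CPM in 11 libraries and to 16.6 CPM in TSLP mature 1, where Cd8a had 21 counts and Cd3e 4. With no filter and TSLP mature 1 included, Cd8a, 1 of the 9, was called higher in TSLP mature than in IL-3 mature cells, where 6.35% of all symbols were. The 8 NK cell genes followed Nkg7, which was highest in IL-3 immature cells, while Gzma and Tbx21 were at 0 in all libraries. The 9 plasmacytoid dendritic cell genes summed to between 158 and 240 CPM, mostly Bst2 and Runx2, with Cox6a2 at 0 throughout, and Siglech had 7 counts in TSLP mature 1 and 0 to 3 elsewhere. Of 6 plasma cell genes, Mzb1 had 42 counts in TSLP mature 1, 0 to 9 in the other TSLP libraries and 0 in the IL-3 libraries, and Xbp1, the 1 tested, was higher in TSLP mature cells (0.58 ± 0.18 on the log2 scale, edgeR adjusted p 0.0258), a call lost without TSLP mature 1 (0.0836). Sums of the 8 mast cell, 6 eosinophil and 9 erythroid genes reached 12.1, 90.8 and 8.25 CPM, with their highest values in IL-3 libraries, and Tpsab1, Mrgprb2, Hbb-bs, Alas2 and Car1 were at 0 in all libraries.

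The genes whose levels ran closest to those of the members were sought among 10858 genes whose mean reached 1 CPM, by Pearson's r with the mean centred log2 CPM of Cd79a, Cd79b and Ms4a1. This is a description over libraries that share groups and depth. Over 12 libraries, the 10 closest genes were Eno1 (r = 0.978), Blk (0.965), Ly6d (0.953), Eno1b, Dolpp1, Yif1a, Wbp1, Rab24, Psmb10 and Tradd, of which Blk and Ly6d belong to the B lineage lists. Over the 11 libraries without TSLP mature 1 they were Tgm2 (0.968), Pfkl (0.966), Eno1 (0.963), Rptor, Atp11a, Coq5, Sema4f, Blk (0.942), Ly6g5b and Aars2, so that Eno1 and Blk were in both lists. Eno1, the glycolytic enzyme enolase, lay between 805 and 1028 CPM in IL-3 libraries, between 1158 and 1437 CPM in the 5 other TSLP libraries and at 1857 CPM in TSLP mature 1. Tgm2, which encodes transglutaminase 2, lay between 9.42 and 24.1 CPM in IL-3 and between 63.1 and 82.9 CPM in TSLP libraries, and was not highest in TSLP mature 1 (63.1 CPM).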

How the data were processed

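Polyadenylated RNA of sorted BMBAs was amplified and sequenced on an Ion Proton in 12 libraries. According to the study's methods, reads were trimmed with Cutadapt, aligned to reference RNA of GRCm38 with Bowtie2 and counted per gene, and the submitters' processing notes name mm10 and GRCm39 as well. The deposited values are raw counts per gene symbol. They were used as they stand, after 1 unnamed row that held 50.0% of each column, the sum of the other rows, was left out. The strand setting of the counting is not given in the sources used here. TMM normalisation and the edgeR (4.0.16) quasi-likelihood test were run in R (4.3.3) on 10861 genes past a filter (minimum count 10, minimum total 15), with 1 fit over the 4 groups, and on 11020 genes without TSLP mature 1. Genes with a Benjamini-Hochberg adjusted p under 0.05 were called, and the common biological coefficient of variation was 20.4%. Ratios of pooled counts have exact binomial intervals at 95% and shares Wilson intervals, and both cover counting error only. Ratios of the TSLP libraries without TSLP mature 1 to all IL-3 libraries pool both stages, with fewer mature libraries on the TSLP side. A group at 0 was set to a floor of 3 counts. The genes and the gene lists were chosen with earlier results of these data known. Apart from the 6 genes, list genes called between TSLP and IL-3 cultures (at most 6 per list, by size of change), markers at 0 in all libraries and the 10 genes closest by Pearson's r were named by rule, and further list genes were named after their values were seen. DESeq2 (1.42.0), other size factors, no filter, a table without Rn45s, a replicate block and leaving out each library were the alternatives. Procedures were tested on simulated data. Some genes of the lists were counted but are not reported here by name.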

Additional observations from a re-analysis of the deposited data

How the results depend on the processing

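The numbers of genes called kept within 1.5 times of those reported under other size factors, DESeq2, no filter, no Rn45s and the replicate block, and depended more on single libraries. Leaving out each library in turn gave 4193 to 5676 genes between IL-3 stages (5020 reported), 1774 to 3456 between TSLP stages (2731), 1859 to 3626 between TSLP stages without TSLP mature 1 (3456), 1658 to 2968 between mature groups (2634) and 588 to 2243 between immature groups (1443). The B lineage list genes called higher with TSLP were 5 to 14 in mature and 4 to 12 in immature cells. They were 26 in mature cells with no filter and TSLP mature 1 included, an alternative chosen after seeing the data. The summed level of the 6 genes was 21.2 to 98.2 CPM in TSLP mature cells when a library was left out, 36.4 to 39.3 CPM in TSLP immature, 6.43 to 6.68 CPM in IL-3 immature and 2.41 to 2.98 CPM in IL-3 mature cells. On raw totals it was 7.47 CPM in IL-3 immature cells, and on totals without Rn45s 8.34 CPM there and 43.2 CPM in TSLP immature cells. Between TSLP stages, leaving out TSLP mature 1 reversed the log2 differences to 0.59 for Cd79a, 1.35 for Cd79b and 1.11 for Ms4a1, the lowest values over libraries left out being -2.05, -1.04 and -1.13. Between IL-3 stages, that of Ms4a1, which rests on 5 counts, ranged from -0.60 without IL-3 immature 1 to 1.13 without IL-3 immature 2 and was -0.18 without IL-3 mature 1.

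Same-numbered libraries deviated from their group means with correlations from -0.077 to 0.388, so the numbers were not taken to pair samples. With the replicate block, 5251, 3067, 2853 and 1893 genes were called between IL-3 stages, TSLP stages, mature and immature groups. Cd79b was then called between IL-3 stages (log2 difference 2.64, edgeR adjusted p 0.0425), and Ms4a1 was not between TSLP stages without TSLP mature 1 (0.99, edgeR adjusted p 0.121).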
